A study of Mesocricetus auratus with 24 samples.

Results

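The gene described here is Lipg (ENSMAUG00000000351), which encodes endothelial lipase. It is 1 of the 22283 genes counted in livers of male golden Syrian hamsters, and it was chosen from a list of 18 metabolic-pathway genes drawn up on these libraries by how HFD-T070 5% differed from HFD. That contrast is therefore given as a description, without a test. Each of the 24 libraries came from 1 hamster of the genotype labelled WT, and 8 libraries belonged to each group. The ND group received the normal diet. The HFD group received a high-fat diet with 45% of its energy from fat, mainly hydrogenated coconut oil, 17% of its energy from fructose, and 1.4% cholesterol. The HFD-T070 5% group received the same high-fat diet with 5% (wt/wt) Totum-070, a blend of plant extracts, mixed in. The methods give an age of 8 weeks at the start and 12 weeks of feeding, whereas the labels give 6 weeks of feeding. The hamsters shared cages, and the cage of each library is not given in the sources used here.

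Endothelial lipase belongs to the family that also holds lipoprotein lipase, hepatic lipase and pancreatic lipase. It is a secreted enzyme that is bound at the surface of endothelial cells and acts mainly as a phospholipase, with the phospholipids of high-density lipoproteins as its best known substrate. Its activity lowers HDL cholesterol in plasma, and angiopoietin-like protein 3 inhibits it. Hepatocytes and other cells of the liver can also carry its transcript, and in RNA of whole liver fewer cells of a type and less RNA per cell cannot be told apart. The counts name genes by identifier only, and the symbols used here come from the list of 18 genes, so the tissue label could not be checked against cell type markers and the other lipases and their regulators were not analysed here.

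The libraries held 15289624 to 20740364 counts each for ND, 10789142 to 19809400 for HFD and 16885735 to 18836505 for HFD-T070 5%. Lipg was supported by 194 to 1335 reads in ND, by 57 to 1618 in HFD and by 28 to 157 in HFD-T070 5% libraries. HFD replicate 1 stood apart from its group at Lipg, as the levels below show. At 25.2% of 12193 genes with a mean of at least 1 CPM (counts scaled to the same library total) it lay above the 7 other HFD libraries, and at 24.7% it lay below them. These shares were not computed for the other HFD libraries, so they cannot tell whether only HFD replicate 1 was unusual. HFD replicate 7, with the fewest counts, also moved the number of genes passing the edgeR test. For HFD-T070 5% against ND, that number rose from 5689 to 6549 without HFD replicate 7 and to 6112 without HFD replicate 1. For HFD against ND it rose from 7044 to 7489 and to 7673, in the same order. Levels and fold changes of the HFD group are given with and without HFD replicate 1 because of its Lipg level.

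Lipg was highest in the livers of the ND group and lowest in those of the HFD-T070 5% group, and 1 HFD liver held more Lipg than any ND liver. On the scale of CPM, with library totals adjusted by TMM, the ND libraries 1 to 8 measured 41.5, 55.6, 53.3, 90.9, 59.4, 35.2, 11.6 and 17.8 CPM. The mean was 45.7 ± 25.2 CPM (SD, n = 8) and the median 47.4 CPM. ND replicates 7 and 8 were the low libraries of this group, at a level that the highest HFD libraries reached. The HFD libraries 1 to 8 measured 112.7, 18.9, 3.70, 5.04, 4.51, 4.82, 5.70 and 4.81 CPM. The mean was 20.0 ± 37.8 CPM (SD, n = 8), whereas the median was 4.93 CPM. HFD replicates 3 to 8 lay close together, HFD replicate 2 overlapped the low end of the ND group, and HFD replicate 1 exceeded every other library. Without HFD replicate 1 the HFD mean was 6.78 ± 5.38 CPM (SD, n = 7) and the median 4.82 CPM. The HFD-T070 5% libraries 1 to 8 measured 1.75, 3.89, 2.95, 4.62, 2.58, 1.58, 8.03 and 3.92 CPM. The mean was 3.66 ± 2.06 CPM (SD, n = 8) and the median 3.42 CPM. All 8 lay below every ND library, and replicate 7 was the high library of the group.

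**Figure D1:**
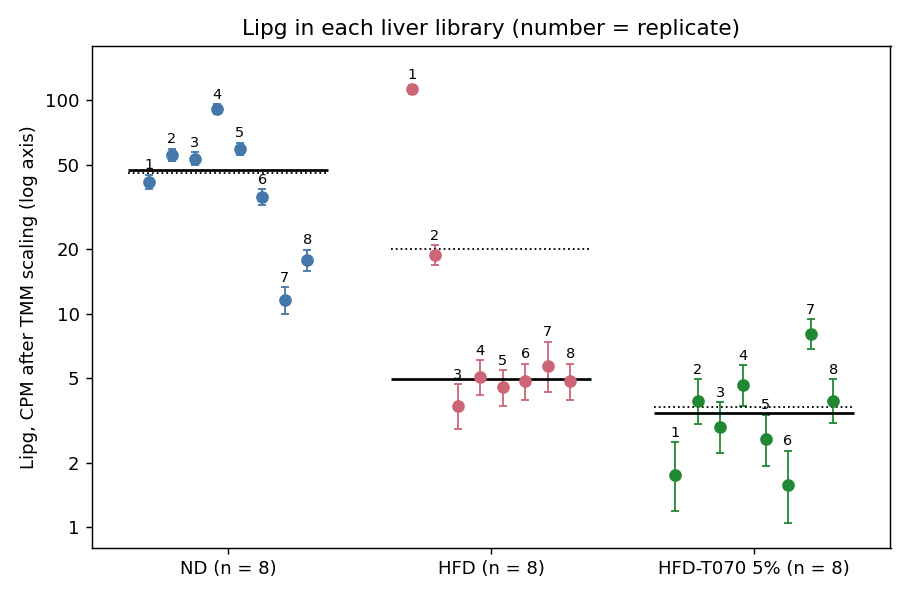
Lipg level in each of the 24 libraries in CPM on a log axis, by group, with bars for the 95% exact Poisson interval of the count, a solid line for the median and a dotted line for the mean of each group. The 8 HFD-T070 5% libraries lie below all 8 ND libraries, and HFD replicate 1, at 112.7 CPM, lies above all others.

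The plot of Lipg by library shows that counting error was small beside the distance between the extremes. The 95% exact Poisson interval of the count was 107.3 to 118.4 CPM in HFD replicate 1 and 17.0 to 21.0 CPM in HFD replicate 2. It was 9.99 to 13.3 CPM in the lowest ND library and 6.83 to 9.39 CPM in the highest HFD-T070 5% library, so these intervals did not overlap. In the lowest HFD-T070 5% library it was 1.05 to 2.28 CPM. These intervals cover counting error only. With the 24 libraries ranked by level, the intervals of 16 of the 23 neighbouring pairs overlapped. HFD replicate 1 was followed by ND replicates 4, 5, 2, 3, 1 and 6, then by HFD replicate 2, ND replicate 8 and ND replicate 7. The lower ranks held HFD-T070 5% replicate 7 and then a mixture of the remaining HFD and HFD-T070 5% libraries, with HFD-T070 5% replicates 3, 5, 1 and 6 in the last places.

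Lipg was downregulated in HFD-T070 5% livers compared with ND livers. This comparison asks how far the livers of hamsters given the supplemented high-fat diet differed from those on the normal diet, and it shares its HFD-T070 5% libraries with the contrast that chose the gene. Lipg was chosen where these libraries were low against HFD, so the p-values below are not independent evidence of a fall. The ND mean was 12.5 times the HFD-T070 5% mean, and the ND median was 13.9 times the HFD-T070 5% median. The log2 fold change was −3.63 (SE 0.70, adjusted p = 2.30e-04, quasi-likelihood test of edgeR with Benjamini–Hochberg adjustment over 13134 genes). It was the 8th largest fall among these genes, whose median log2 fold change was −0.01. Of all genes tested, 43.3% were called in this comparison, and those called lower in HFD-T070 5% made up 21% of all genes tested. Lipg was lower in all 64 pairs of 1 HFD-T070 5% and 1 ND library. At 7.4% of genes every HFD-T070 5% library likewise lay below every ND library. An exact two-sided permutation test of the log2 CPM over 12870 assignments of the libraries gave a difference of −3.52 and p = 1.55e-04, the smallest value this design allows. When HFD replicate 1 was left out of the shared fit, the log2 fold change of HFD-T070 5% against ND was −3.62 (SE 0.42, adjusted p = 2.15e-07 by edgeR), with a smaller error than in the fit with all libraries.

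The comparison of HFD with ND asks how livers on the high-fat diet without the supplement differed from those on the normal diet, and here the call changed with 1 library and with the method. It shares its HFD libraries, HFD replicate 1 among them, with the contrast that chose the gene. The ND mean was 2.28 times the HFD mean, but the ND median was 9.62 times the HFD median. With all libraries the log2 fold change was −1.20 (SE 0.62, adjusted p = 0.105 by edgeR), which did not pass the threshold of 0.05. In this comparison 53.6% of all genes tested were called, and 26.3% of genes tested were called lower in the HFD group. Without HFD replicate 1 the log2 fold change was −2.73 (SE 0.42, adjusted p = 5.17e-06 by edgeR), in a fit that called 27.6% of its genes lower. With all 24 libraries, voom of limma gave −2.29 (adjusted p = 5.55e-04). Without HFD replicate 1 the ND mean was 6.73 times the HFD mean. Lipg was lower in 54 of 64 pairs of 1 HFD and 1 ND library, and 6 of 8 HFD libraries lay below every ND library. On log2 CPM, the exact two-sided permutation test gave a difference of −2.18 and p = 0.00963 with all 8 HFD libraries. The same exact permutation test without HFD replicate 1 gave a difference of −2.72 and p = 7.77e-04, over 6435 assignments. HFD replicate 1 held the highest Lipg level of all libraries, so leaving it out favours a lower HFD level. The p-values without it, by edgeR and by permutation, are therefore a description and not separate evidence of a fall. The edgeR call on the counts and the test on log2 CPM thus differed with all 8 HFD libraries, and both passed without HFD replicate 1. They are unlike measures, since the edgeR p was adjusted over all genes tested and the permutation p was for Lipg alone. The edgeR fold change also follows the group means of counts, and the permutation test the means of log2 CPM.

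Between the HFD-T070 5% and HFD groups, the contrast that chose Lipg, the log2 fold change was −2.43 (SE 0.67) with all libraries and −0.89 (SE 0.43) without HFD replicate 1. The HFD mean was 5.47 times the HFD-T070 5% mean with all libraries and 1.85 times without HFD replicate 1. The medians hardly depended on that library, and their ratio was 1.44 with it and 1.41 without it. HFD replicate 1 alone made up 70.4% of the Lipg level summed over the 8 HFD libraries, and its level was 16.6 times the mean of the 7 others and 1.24 times the highest ND library. The HFD-T070 5% library was the lower one in 54 of 64 pairs, and in 46 of 56 pairs without HFD replicate 1. Of the 8 HFD-T070 5% libraries, 4 lay below the lowest HFD library, 3 lay within the range of HFD replicates 3 to 8, from 3.70 to 5.70 CPM, and 1 lay above that range. The groups therefore overlapped.

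**Figure D2:**
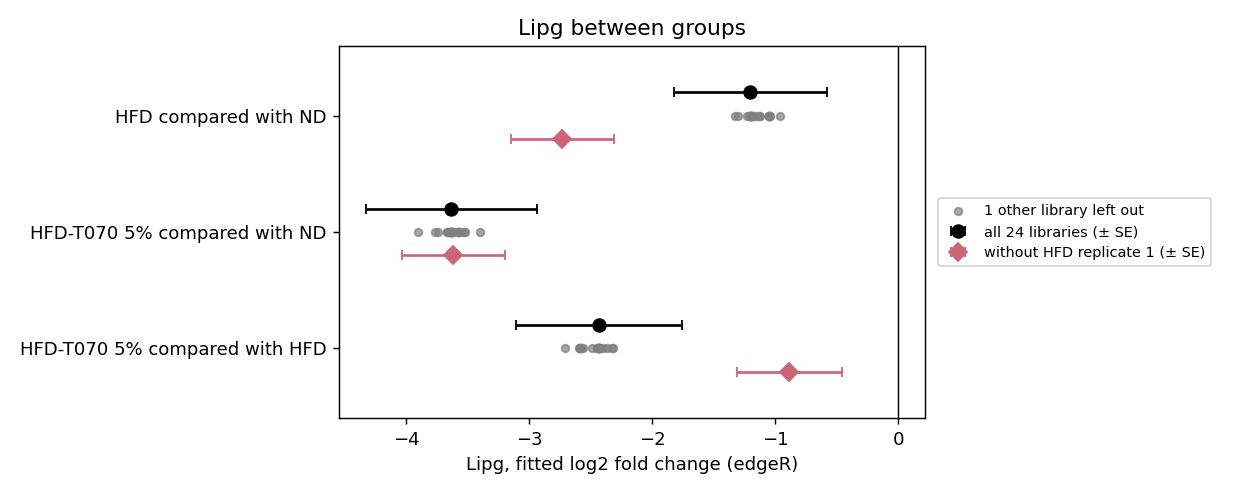
Log2 fold change of Lipg in the 3 contrasts between groups, with all 24 libraries (black, ± SE), with 1 other library left out at a time (grey), and without HFD replicate 1 (red diamond, ± SE). The HFD-T070 5% against ND value stays near −3.63, whereas the HFD against ND value moves from −1.20 to −2.73 and the HFD-T070 5% against HFD value from −2.43 to −0.89.

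The plot of fold changes shows which contrasts turned on HFD replicate 1. Leaving out any other library kept the contrast of HFD with ND between −1.33 and −0.96 and that of HFD-T070 5% with HFD between −2.70 and −2.32. The low ND libraries, replicates 7 and 8, moved the contrast of HFD with ND to −1.33 and −1.30, far less than HFD replicate 1 did.

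Lipg varied more between hamsters of one group than most genes did. Within the ND group the SD of log2 CPM was 0.97, against 0.20 for the median of 12194 genes with a mean of at least 1 CPM, and 0.968% of genes had a larger SD. In the HFD-T070 5% group the SD was 0.74 against a median of 0.16, and 1.07% of genes had a larger one. In the HFD group the SD was 1.67 against a median of 0.32, with 0.476% of genes above it. Without HFD replicate 1 it was 0.77 against 0.27, with 2.65% above it. The genes were not matched to Lipg by level. Counting error adds to the SD where reads are few, as in HFD-T070 5%, with 28 to 157 reads of Lipg. On the linear scale the highest library was 7.87 times the lowest in the ND group, 30.5 times in the HFD group, 5.11 times in the HFD group without replicate 1, and 5.09 times in the HFD-T070 5% group. The coefficients of variation were 55.3% in ND, 188.7% in HFD, 79.3% in HFD without replicate 1 and 56.3% in HFD-T070 5%. The spread around the mean was thus of like relative size in the ND and HFD-T070 5% groups, at very different levels. HFD replicate 1 differed from the mean of the 7 other HFD libraries by 4.26 on the log2 scale. This was the 11th largest upward difference among these genes, whose median was 0.04. Downward differences were not ranked, and some genes differed by more in that direction.

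Compared with ND, more genes of the metabolic-pathway list were called higher than lower, whereas Lipg was lower in HFD-T070 5%. Between HFD-T070 5% and ND, 10 of the 18 list genes were higher in HFD-T070 5%, 4 were lower and 4 did not pass the edgeR test. Of all genes tested, 22.3% were called higher and 21% lower in this comparison, so that the 4 of 18 lower list genes were near the share over all genes. The median log2 fold change of the list was 0.83 against −0.01 for all genes tested. The lower genes were Lipg, Acly, Sqle and ENSMAUG00000000598, the last of which has no symbol in the list. Between HFD and ND, 13 list genes were higher in HFD, 1 was lower and 4 did not pass, with a median of 2.32 against −0.03. Over all genes tested, 27.3% were called higher and 26.3% lower. The lower gene was Sqle. Without HFD replicate 1, 13 were higher and 3 lower, now including Lipg and Acly. In the contrast of HFD-T070 5% with HFD, which chose the list, 16 of the 17 other list genes had a log2 fold change below 0, as Lipg did, and 15 of 17 without HFD replicate 1. The list was chosen on these libraries, so its counts are not independent evidence of a direction. Several list genes called higher in HFD lay under 1 CPM in every ND library. They passed the filter on counts mainly through the high-fat groups and could hardly be called lower. The list counts against ND therefore cannot be set evenly against the shares over all genes.

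Among enzymes that act on phospholipids or make lipid mediators, Pla2g7, Alox5 and Mboat1 were higher than in ND in both groups on the high-fat diet, and Mboat2 in HFD. Pla2g7 encodes the lipoprotein-associated phospholipase that cleaves platelet-activating factor and oxidized phospholipids. It measured 6.98 ± 1.70 CPM in the ND group (SD, n = 8), 66.3 ± 32.0 CPM in the HFD group (n = 8), or 74.7 ± 23.4 CPM without replicate 1 (n = 7), and 33.1 ± 6.43 CPM in the HFD-T070 5% group (n = 8). Its log2 fold change was 3.25 (SE 0.32, adjusted p = 5.74e-08 by edgeR) for HFD against ND and 2.24 (SE 0.31, adjusted p = 8.70e-06) for HFD-T070 5% against ND. Alox5 encodes 5-lipoxygenase, which starts leukotriene synthesis. It rose by 3.73 (SE 0.50, adjusted p = 1.44e-06 by edgeR) in HFD and by 2.35 (SE 0.56, adjusted p = 0.00165) in HFD-T070 5%, both on the log2 scale against ND. Mboat1 and Mboat2 encode lysophospholipid acyltransferases, which put a fatty acid back onto a lysophospholipid, and as related genes they could share reads. Mboat1 rose by 2.58 (SE 0.35, adjusted p = 1.96e-06 by edgeR) in HFD and by 1.42 (SE 0.39, adjusted p = 0.00473) in HFD-T070 5%, on the same scale. Mboat2 rose by 2.06 (SE 0.42, adjusted p = 2.80e-04 by edgeR) in HFD, and its value in HFD-T070 5% was 0.57 (SE 0.50, adjusted p = 0.368). For HFD against ND without HFD replicate 1, the log2 fold changes were 3.44 (SE 0.20, adjusted p = 5.98e-13 by edgeR) for Pla2g7, 3.92 (SE 0.41, adjusted p = 1.08e-08) for Alox5, 2.75 (SE 0.28, adjusted p = 1.29e-08) for Mboat1 and 2.24 (SE 0.34, adjusted p = 5.61e-06) for Mboat2. Alox5, Mboat1 and Mboat2 lay under 1 CPM in every ND library, so they passed the filter on counts mainly through the high-fat groups. Both comparisons with ND share libraries with the contrast that chose these list genes, so their p-values are not independent evidence of a rise. In the contrast of HFD-T070 5% with HFD, which chose the list, the values of these 4 genes were below 0, as was that of Lipg, at −1.37 for Alox5, −1.16 for Mboat1, −1.49 for Mboat2 and nearest to 0 for Pla2g7.

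HFD replicate 1 did not share these rises. It measured 7.87 CPM for Pla2g7, where the ND libraries ranged from 5.38 to 9.49 CPM and the other HFD libraries started at 40.4 CPM. It measured 0.209 CPM for Alox5, 0.348 CPM for Mboat1 and 0.0697 CPM for Mboat2, and all 3 values lay within the range of the ND libraries. These 3 values rest on very few reads. The library labelled HFD replicate 1 therefore lay within the ND range at these 4 genes and above the ND range at Lipg.

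Acly and Sqle fell with Lipg between the ND and HFD-T070 5% groups. Acly encodes ATP citrate lyase, which supplies cytosolic acetyl-CoA for fatty acid and sterol synthesis. It measured 1083 ± 858 CPM in the ND group (SD, n = 8), 425.9 ± 1084 CPM in the HFD group (n = 8), or 42.6 ± 13.5 CPM without replicate 1 (n = 7), and 80.9 ± 62.8 CPM in the HFD-T070 5% group (n = 8). HFD replicate 1 measured 3108 CPM, above the highest ND library with 2706 CPM. Its log2 fold change for HFD-T070 5% against ND was −3.74 (SE 0.99, adjusted p = 0.00391 by edgeR), the 7th largest fall and next to that of Lipg. For HFD against ND its value was −1.35 (SE 0.90, adjusted p = 0.213 by edgeR), and −4.65 (SE 0.56, adjusted p = 1.46e-07) without HFD replicate 1. Leaving out that library, the highest of all for Acly, favours a fall. In the contrast that chose both genes, the Acly value was −2.39 with all libraries and 0.92 without HFD replicate 1, so that its sign turned, whereas that of Lipg did not.

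Sqle encodes squalene epoxidase, which catalyses a rate-limiting step of cholesterol synthesis. It measured 9.96 ± 5.06 CPM in ND (SD, n = 8), 3.47 ± 1.93 CPM in HFD (n = 8), or 2.80 ± 0.405 CPM without replicate 1 (n = 7), and 1.70 ± 0.394 CPM in HFD-T070 5% (n = 8). HFD replicate 1 measured 8.15 CPM, within the ND range of 4.65 to 18.3 CPM. The log2 fold change of Sqle was −2.54 (SE 0.30, adjusted p = 1.81e-06 by edgeR) for HFD-T070 5% against ND and −1.54 (SE 0.28, adjusted p = 7.16e-05) for HFD against ND. The latter value was −1.80 without HFD replicate 1 (SE 0.25, adjusted p = 1.04e-06 by edgeR). Sqle thus passed the test in both comparisons with all 24 libraries, unlike Lipg and Acly. These comparisons share libraries with the contrast that chose Acly and Sqle, so their p-values are not independent evidence of a fall.

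**Figure D3:**
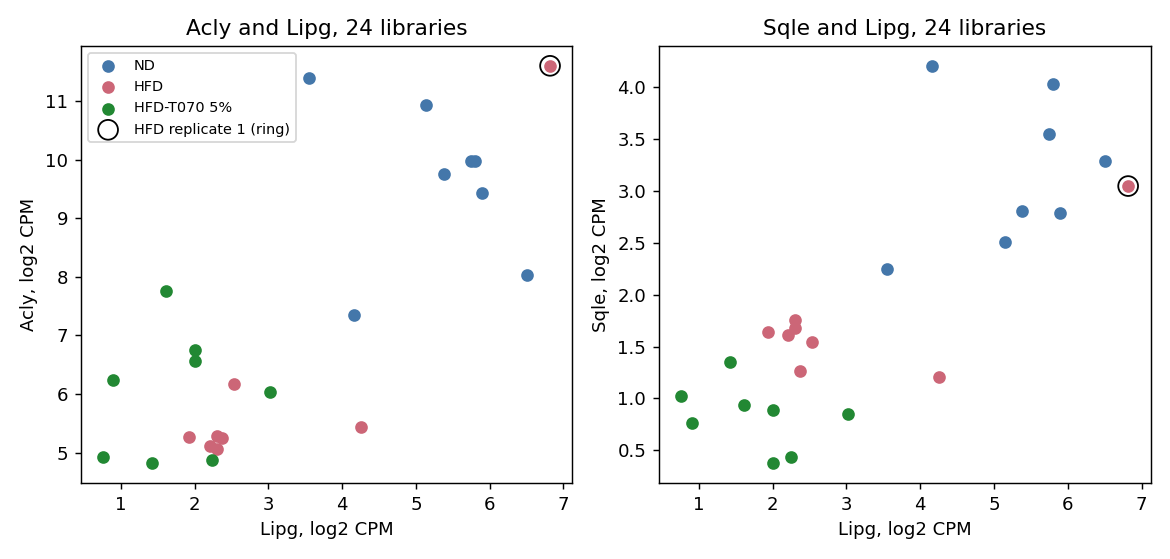
Log2 CPM of Acly (left) and of Sqle (right) against log2 CPM of Lipg, 1 point per library, coloured by group, with a ring around HFD replicate 1. The ND libraries lie at higher Lipg than all HFD-T070 5% libraries, and HFD replicate 1, with 112.7 CPM of Lipg and 3108 CPM of Acly, lies among or beyond the ND libraries.

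In the plot of Acly and Sqle against Lipg the ND libraries lie apart from most HFD and HFD-T070 5% libraries, so no correlation over all libraries is given, and none within HFD with replicate 1, which lies apart from the 7 others. Within groups, Pearson's r of log2 CPM between Lipg and Acly was −0.27 in ND (exact permutation p = 0.536, n = 8), 0.22 in HFD without replicate 1 (exact permutation p = 0.469, n = 7) and 0.15 in HFD-T070 5% (exact permutation p = 0.715, n = 8). Between Lipg and Sqle it was 0.21 in ND (exact permutation p = 0.612, n = 8), −0.72 in HFD without replicate 1 (exact permutation p = 0.0357, n = 7) and −0.36 in HFD-T070 5% (exact permutation p = 0.384, n = 8). These were 6 relations in 1 family, all tests were two-sided, and the Benjamini–Hochberg adjusted p was 0.214 for the lowest and 0.715 for the 5 others. Spearman's rho for Acly was −0.40 in ND (exact permutation p = 0.327, adjusted 0.490), 0.64 in HFD without replicate 1 (p = 0.139, adjusted 0.417) and 0.10 in HFD-T070 5% (p = 0.840, adjusted 0.840). For Sqle rho was 0.24 in ND (exact permutation p = 0.582, adjusted 0.699), −0.64 in HFD without replicate 1 (p = 0.139, adjusted 0.417) and −0.48 in HFD-T070 5% (p = 0.243, adjusted 0.486). None of the relations passed the threshold. Without the 2 libraries farthest from the median Lipg level, r became −0.92, 0.92 and −0.08 for Acly in ND, HFD without replicate 1 and HFD-T070 5%, and 0.46, −0.33 and −0.49 for Sqle, and leaving out these libraries moved r by the least for Sqle in HFD-T070 5%. Acly and Sqle thus fell together with Lipg between ND and HFD-T070 5%, and no relation between hamsters of one group was detectable with 7 or 8 libraries.

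The genes whose level followed Lipg from hamster to hamster were therefore sought among all genes. Likeness was Pearson's r of log2 CPM after subtraction of each group's mean, over the 23 libraries without HFD replicate 1, for 12193 genes with a mean of at least 1 CPM. The 23 points share their libraries, TMM scaling and tissue, so r is a description and carries no p. The median over genes was 0.00. Acly, at −0.07, and Sqle, at −0.03, ranked 7369th and 6661st from the most alike. Asns, a list gene that encodes asparagine synthetase, had the value −0.57, the lowest of the 14 list genes compared, and ranked 131st from the least alike.

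The gene most like Lipg was ENSMAUG00000020359, with r = 0.86, and its r was 0.90 within ND, 0.80 within HFD without replicate 1 and 0.89 within HFD-T070 5%. Its level moved over a narrow range, from 11.5 ± 1.05 CPM in ND (SD, n = 8) through 10.2 ± 0.864 CPM in HFD without replicate 1 (n = 7) to 8.96 ± 0.864 CPM in HFD-T070 5% (n = 8). Its log2 fold change for HFD-T070 5% against ND was −0.36 (SE 0.08, adjusted p = 5.69e-04 by edgeR). The next was ENSMAUG00000000406 with r = 0.81, which rested on ND (0.95) and HFD without replicate 1 (0.98) more than on HFD-T070 5% (0.33). Its mean was 102.6 CPM in ND, 66.2 CPM in HFD without replicate 1 and 74.4 CPM in HFD-T070 5%, with a log2 fold change of −0.46 (adjusted p = 9.81e-04 by edgeR) for HFD-T070 5% against ND. The least like Lipg were ENSMAUG00000001119, with r = −0.86, and ENSMAUG00000000757, with r = −0.78. The level of ENSMAUG00000001119 was 4.81 CPM in ND, 6.51 CPM in HFD without replicate 1 and 8.31 CPM in HFD-T070 5%, and it rose by 0.78 (SE 0.30, adjusted p = 0.0361 by edgeR) on the log2 scale between ND and HFD-T070 5%. For ENSMAUG00000000757 the value was 0.71 (adjusted p = 0.107 by edgeR), which did not pass. These identifiers have no symbol in the sources used here.

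Likeness used no difference between groups, so the group differences of the most like genes could be set beside it. Of the 100 genes most like Lipg, whose last member and the first gene outside both had r = 0.63, 47 were lower and 8 higher in HFD-T070 5% than in ND. Among all genes compared, 22.1% were lower and 21.9% higher. Their median log2 fold change was −0.26, against −0.02 for all genes compared. Of the 100 genes least like Lipg, 5 were lower and 55 higher, with a median of 0.47. Among the most like genes, calls in the direction of Lipg thus outnumbered those in the other direction, and the remaining genes did not pass the test.

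HFD replicate 1 took no part in the correlations that chose these genes, though it counted in the TMM scaling and in the cut at a mean of 1 CPM. It lay above the 7 other HFD libraries at 39 of the 100 most like genes and below them at 13, against 25.2% and 24.7% of all genes compared. At the 100 least like genes it lay above at 16 and below at 51. The median difference of HFD replicate 1 from the mean of the other HFD libraries was 0.27 on the log2 scale over the 100 most like genes, against 0.04 over all genes compared and 4.26 for Lipg. At Lipg it lay above every ND library, which was so at 7 of the 100 most like genes, at 11 of the 100 least like genes and at 12.9% of all genes compared.

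**Figure D4:**
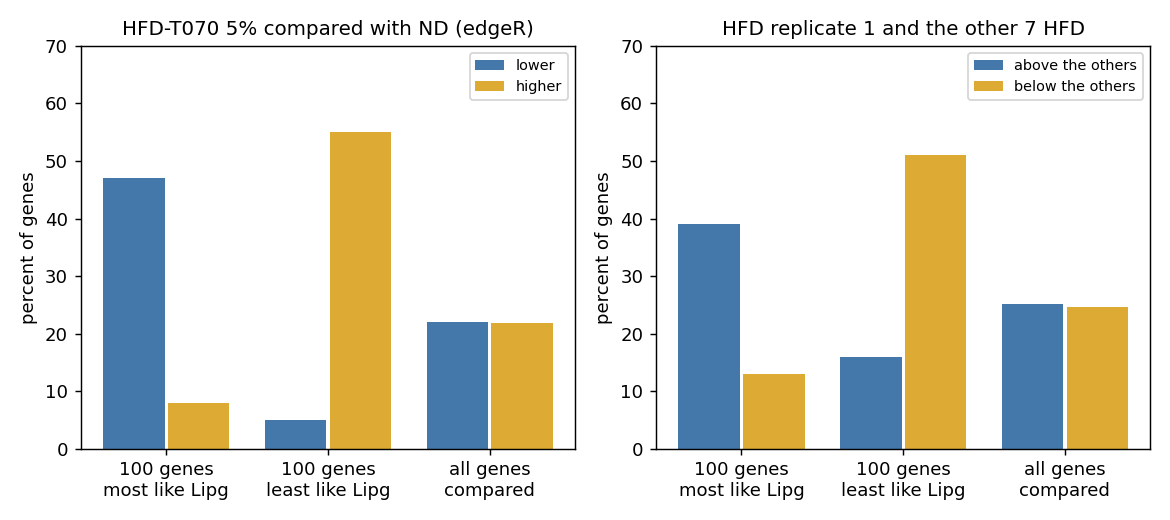
Percent of genes that were lower or higher in HFD-T070 5% than in ND, and percent at which HFD replicate 1 lay above or below the 7 other HFD libraries, for the 100 genes most like Lipg, the 100 least like it and all 12193 genes compared. Of the most like genes 47 were lower and 8 higher, of the least like 5 were lower and 55 higher, and of all genes compared 22.1% were lower and 21.9% higher.

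The plot of the most and least like genes sets both measures side by side. The most like genes were more often lower in HFD-T070 5% and more often high in HFD replicate 1 than the genes compared as a whole, and the least like genes lay the other way. These genes share libraries and are not independent replicates, so the counts are a description of these 24 livers.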

How the data were processed

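Liver RNA of 24 hamsters was sequenced after depletion of ribosomal RNA, with directional libraries and single-end reads of 75 cycles. The authors trimmed reads with Trimmomatic 0.36 and mapped and counted them with STAR 2.7.10 against MesAur1, per the methods and the submitters' processing notes. They deposited whole-number counts per gene, without normalization, for 22283 genes. Neither the annotation release nor a strand setting is given in the sources used here, so overlapping or related genes could share reads. Library titles gave groups and replicate numbers.

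From the counts, genes were kept by filterByExpr (minimum count 10, minimum total 15), which left 13134. TMM scaling, glmQLFit and glmQLFTest of edgeR 4.0.16 in R 4.3.3 were applied to all 24 libraries with 3 groups, with Benjamini–Hochberg adjustment over all genes tested and a threshold of 0.05. The SE is the size of the log2 fold change over the root of its F statistic. CPM used TMM-scaled totals, and log2 CPM a prior count of 2. Single values were compared by exact two-sided permutation tests over libraries, enumerated in Python 3.11.15 with numpy 2.4.6. Ranks for Spearman's rho came from scipy 1.17.1. No pair of libraries of 1 group differed by less than the sampling noise (chi-square per degree of freedom at least 8.07). P-values measure the spread between hamsters, some of which shared cages. Counting intervals are exact Poisson intervals at 95%.

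In a test on simulated counts for the 13134 genes, 183 of 200 changed genes (91.5%) were recovered for HFD against ND, with 15 false calls among 198. For HFD-T070 5% against ND, 184 (92%) were recovered, with 9 false calls among 193. The simulation changed far fewer genes than the 53.6% and 43.3% called in the data, and held no library like HFD replicate 1. It therefore does not measure how well the fits do on these libraries. Alternatives were DESeq2 1.42.0, voom of limma 3.58.1, other filters and scalings, the replicate number as a block, and each library left out in turn. The quasi-likelihood dispersions of edgeR 3 and other sizes of the list of like genes were added after the data were seen.

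Lipg, the list of 18 genes and the genes named with it were chosen with earlier results of these data known. Named were Lipg, the list genes Mboat1, Mboat2, Pla2g7, Alox5, Acly and Sqle, the list gene ranking last in likeness, and the 2 genes most and the 2 least like Lipg. Other list genes entered as counts only, and 1 of them is not reported here by name. ENSMAUG00000000598 was named after its values were seen. Of 36133 RefSeq rows used for names, 0 held an Ensembl identifier, so pathway and cell type lists, coordinates and sequences were not analysed here.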

Additional observations from a re-analysis of the deposited data

Results flagged for a closer look

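In groups of 8 libraries, a value was set aside for a closer look where its gap to the nearest library, divided by the range of the group, exceeded Dixon's 95% critical value. This happened in 4 of 12 sets of 8 values. Chance gives about 1 in 20 only for normally distributed values of genes chosen without regard to them. These genes were chosen on a contrast that HFD replicate 1 moved, so that rate cannot be set against this count. HFD replicate 1 was far above its group for Lipg, with 112.7 CPM and a gap of 0.861 of the range on the linear scale, whereas on the log2 CPM scale its gap of 0.5256 stayed just under the critical value. It was also far above it for Acly, with 11.60 on the log2 CPM scale and a gap of 0.830, and for Sqle, with 3.05 on the log2 CPM scale and a gap of 0.702. HFD-T070 5% replicate 7 was far above its group for Lipg on the linear scale, with 8.03 CPM and a gap of 0.529, just past the critical value.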

How the results depend on the processing

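Lipg in HFD-T070 5% compared with ND passed the threshold under all 34 alternatives, with log2 fold changes from −3.91 to −3.40 when 1 library was left out and from −3.64 to −3.41 otherwise (adjusted p 2.06e-07 to 7.07e-04). Lipg in HFD compared with ND was −1.20 (adjusted p = 0.105 by edgeR) and passed under 3 of 34 alternatives: voom of limma (−2.29, adjusted p = 5.55e-04), HFD replicate 1 left out, and the replicate number as a block (−2.20, adjusted p = 0.00772 by edgeR). With 1 library left out it ranged from −2.73 to −0.96, with an adjusted p of up to 0.212. Replicate numbers did not pair the hamsters: 7 of 24 pairs with the same number correlated above 0.1 (range −0.24 to 0.49), a library correlated best with its own number in 7 of 48 comparisons, and the block gave 6960 and 5541 called genes against 7044 and 5689. The value for HFD-T070 5% against HFD ranged from −2.70 to −0.89 with 1 library left out, the latter without HFD replicate 1, and from −2.46 to −1.26 otherwise. Counts of called genes stayed within 1.5 times, at 5702 to 7737 for HFD and 4805 to 6680 for HFD-T070 5%, both against ND.

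No within-group correlation passed under any setting. With library totals in place of TMM, r between Lipg and Acly in HFD without replicate 1 was −0.18. With 1 library left out, r with Acly ranged from −0.87 to 0.20 in ND (0.20 without replicate 7), from 0.17 to 0.70 in HFD without replicate 1 and from −0.089 to 0.31 in HFD-T070 5% (−0.089 without replicate 6). With Sqle it ranged from −0.28 to 0.67 in ND (−0.28 without replicate 7), from −0.93 to −0.33 in HFD without replicate 1 and from −0.53 to −0.27 in HFD-T070 5%. Of the 100 genes most like Lipg, 27 were shared with the list over all 24 libraries, 47 with that of ND and HFD-T070 5% only, 64 with that by Spearman's rho and 72 with that by library totals. With lists of 50 and 200 genes, 42% and 49% were lower in HFD-T070 5% than in ND. The causes of these shifts were not tested. Depth limits the lowest libraries, where Lipg rests on 28 reads.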
